A study of Mus musculus with 56 samples.

Results

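Of 56 mouse mammary tumors, 28 were chosen for the level of milk protein genes: 14 milk-gene-high and 14 milk-gene-low tumors with clear epithelial expression. The choice used measured values. An epithelial score, the mean log2 value of Cdh1, Epcam, Cldn3 and Cldn7, removed the lowest 8 of 32 tumors from wild-type hosts and the lowest 6 of 24 tumors from Tgfb1 heterozygote hosts. The remaining 42 tumors were ranked within host genotype by a milk score, the mean log2 value of Csn2, Csn3 and Wap. The top 8 and bottom 8 tumors of wild-type hosts and the top 6 and bottom 6 tumors of heterozygote hosts formed the 2 sets, and the 14 tumors between them are called middle tumors.

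All tumors grew from p53null mammary fragments, not themselves irradiated, that had been placed in the inguinal mammary fat pads of female BALB/c hosts. The fat pads had been cleared of host epithelium when hosts were 3 weeks old. Hosts received radiation or a sham exposure 3 days ahead of transplantation. The series held 9 tumors of sham-irradiated and 23 of irradiated wild-type hosts, and 6 of sham-irradiated and 18 of irradiated Tgfb1 heterozygote hosts, and asked how host irradiation and host genotype relate to the tumor profile. Tgfb1 encodes the cytokine transforming growth factor beta 1. The labels give no radiation dose, no age of the hosts at tumor collection and no pregnancy or lactation status, nor do they tell which tumors came from the same animal, so p-values measure the spread between these arrays. RNA came from whole tumors, so more milk-producing cells and more milk gene RNA per cell cannot be told apart. The milk-gene-high set held 7 tumors of irradiated and 1 of a sham-irradiated wild-type host, and the milk-gene-low set 5 and 3. In heterozygote hosts both sets held 4 tumors of irradiated and 2 of sham-irradiated hosts.

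Milk protein genes are the mark of the secretory alveolar cell, the luminal cell that differentiates in pregnancy. Prolactin acts through its receptor and the kinase Jak2 on the transcription factors Stat5a and Stat5b, which bind the promoters of casein and whey protein genes. Elf5 is the luminal transcription factor that works with this pathway, and mammary tumors can keep part of the program.

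Promoter sequence is shown for score genes and called milk genes, to set the Stat5-type motif TTCNNNGAA beside the expression values. Each run is the 250 bases before the start site of the promoter table, 5' to 3', from RefSeq on GRCm38.p6, and capitals mark a motif match. The start site was the gene boundary for Csn1s2a and Glycam1, and lay a few bases inside the annotated gene for Csn2 (site 87699425, boundary 87699429) and Wap (site 6638649, boundary 6638654). Of 6 such genes 4 were in the promoter table, and Csn3 and Btn1a1 were not shown.
Csn2, minus strand of chr5:87699426-87699675: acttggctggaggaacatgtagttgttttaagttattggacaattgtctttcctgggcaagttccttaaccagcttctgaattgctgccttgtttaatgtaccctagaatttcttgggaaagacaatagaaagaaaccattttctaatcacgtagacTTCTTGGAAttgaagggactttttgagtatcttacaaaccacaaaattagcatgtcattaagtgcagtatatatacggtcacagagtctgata
Wap, minus strand of chr11:6638650-6638899: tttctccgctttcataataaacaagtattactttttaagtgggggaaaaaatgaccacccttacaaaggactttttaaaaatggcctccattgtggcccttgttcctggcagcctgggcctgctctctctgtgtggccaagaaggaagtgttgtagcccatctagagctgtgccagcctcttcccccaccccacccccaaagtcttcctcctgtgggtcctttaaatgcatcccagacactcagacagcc
Csn1s2a, plus strand of chr5:87774200-87774449: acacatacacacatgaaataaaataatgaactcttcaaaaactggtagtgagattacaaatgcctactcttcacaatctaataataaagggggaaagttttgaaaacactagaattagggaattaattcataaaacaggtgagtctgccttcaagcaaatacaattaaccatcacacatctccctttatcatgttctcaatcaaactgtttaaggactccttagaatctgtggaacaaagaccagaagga
Glycam1, minus strand of chr15:103565082-103565331: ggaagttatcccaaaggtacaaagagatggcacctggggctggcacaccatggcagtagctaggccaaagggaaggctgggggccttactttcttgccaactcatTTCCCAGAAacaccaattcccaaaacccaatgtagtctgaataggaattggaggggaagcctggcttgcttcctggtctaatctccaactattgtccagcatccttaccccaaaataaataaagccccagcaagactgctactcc
Csn2 held the motif at -93 and Glycam1 at -145 from that site, and the windows of Wap and Csn1s2a did not hold these letters. The motif reads the same on both strands, and it was found in 3 of 20 milk genes with a window (15%; the third was Csn1s1, at -100) and in 2306 of all 32851 windows (7.02%). A match is a description of letters and not a measured binding site.

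The score genes differed by choice, and their values are a description without a test. Csn2, encoding beta-casein, ranged from 12.72 to 13.33 (median 13.18; log2 RMA values here and below) in milk-gene-high and from 9.41 to 12.14 (median 11.25) in milk-gene-low tumors of wild-type hosts. In heterozygote hosts Csn2 ranged from 12.32 to 13.36 (median 12.97) and from 6.79 to 10.32 (median 9.10). The Csn2 values of the 2 sets did not overlap in either host genotype. Wap, encoding whey acidic protein, ranged from 9.29 to 12.37 (median 10.77) against 5.93 to 8.23 (median 6.36) in wild-type hosts, and from 8.09 to 11.89 (median 9.62) against 5.01 to 8.09 (median 6.56) in heterozygote hosts. Csn3, encoding kappa-casein, had medians of 14.32 and 13.64 in wild-type and 14.12 and 12.66 in heterozygote hosts, and its ranges overlapped in both. The 2 sets therefore differed more in Wap and Csn2 than in Csn3, which was high in most tumors of both sets.

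**Figure D1:**
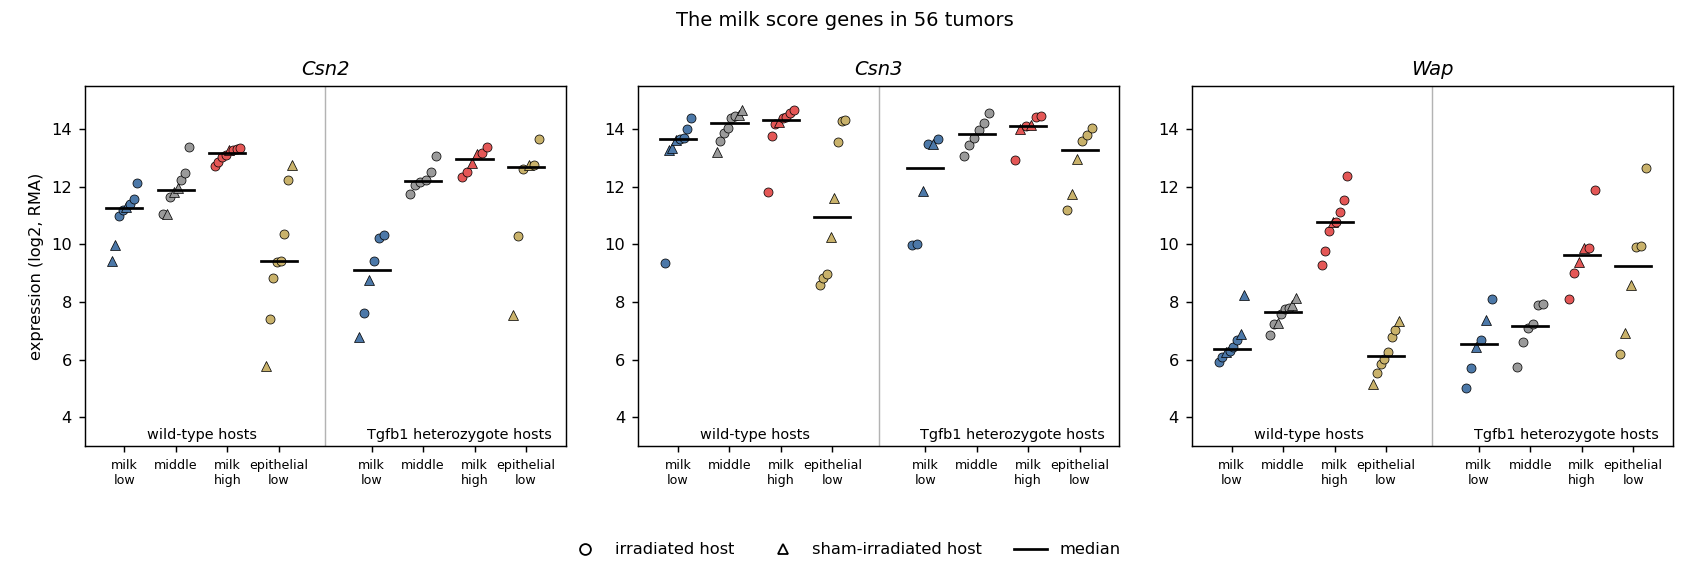
Log2 expression of Csn2, Csn3 and Wap (vertical axis) in each of the 56 tumors, by host genotype and by set (horizontal axis), with circles for irradiated hosts, triangles for sham-irradiated hosts and lines at the medians. Csn2 and Wap separate the sets that the milk score chose, while Csn3 lies near its upper values in most tumors, with medians of 14.32 and 13.64 in the high and low tumors of wild-type hosts.

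The chosen tumors lay close to those left between. In wild-type hosts the lowest milk-gene-high tumor had a milk score of 11.95 and the highest middle tumor 11.57, and the highest milk-gene-low tumor had 10.67 and the lowest middle tumor 10.88. In heterozygote hosts these scores were 11.62 and 11.45 at the upper bound and 10.60 and 10.68 at the lower. The epithelial scores just inside and just outside the choice were 12.20 and 12.17 in wild-type and 12.03 and 12.03 in heterozygote hosts. The luminal keratins, which the choice did not use, were high throughout: Krt8 was at 12.97 or above and Krt18 at 12.86 or above in all 28 tumors.

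Outside the 7 score genes, 4 of 12501 genes were higher in milk-gene-high tumors (0.0320%) and 0 were lower (0%), by limma with host genotype as a block and a Benjamini-Hochberg adjusted p below 0.05. At an unadjusted p below 0.05, 756 genes (6.05%) differed in either direction. The 4 genes were Csn1s2a, Glycam1 and Btn1a1, which encode milk proteins, and Fabp3, which encodes a fatty acid binding protein of the lactating gland and of heart and skeletal muscle. Since the tumors were chosen on 3 milk genes, a gene that follows those genes from tumor to tumor differs between the sets by that choice, and these calls say which genes followed them.

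Csn1s2a encodes an alpha-S2-type casein and lies in the casein gene cluster of chromosome 5 (positions 87774450 to 87788798, GRCm38.p6), with Csn1s1 (87666208 to 87682578), Csn2 (87692619 to 87699429) and Csn3 (87925579 to 87932550). In wild-type hosts it ranged from 12.42 to 13.78 (median 13.33) in milk-gene-high and from 6.82 to 11.47 (median 9.49) in milk-gene-low tumors. In heterozygote hosts it ranged from 10.90 to 14.19 (median 13.35) and from 5.08 to 10.91 (median 7.85). The sets did not overlap in wild-type hosts, and in heterozygote hosts 5 of 6 high tumors lay above every low tumor. Csn1s2a rose by 4.39 (log2, SE 0.52, limma adjusted p = 4.95e-05), a 21-fold difference.

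Glycam1, the gene of a mucin-like glycoprotein secreted in milk (chromosome 15, 103562759 to 103565081), ranged from 8.19 to 11.30 (median 10.22) in high and from 4.03 to 10.62 (median 7.27) in low tumors of wild-type hosts. The heterozygote-host values ranged from 8.55 to 12.56 (median 11.90) and from 3.59 to 8.26 (median 4.04). The sets overlapped in wild-type hosts, where 3 of 8 high tumors exceeded every low tumor, and did not overlap in heterozygote hosts. Glycam1 rose by 4.35 (log2, SE 0.74, limma adjusted p = 0.00756). The difference was 2.88 (SE 0.89) in wild-type and 6.30 (SE 1.03) in heterozygote hosts, and the difference between the genotypes did not pass the test (3.42, SE 1.36, limma adjusted p = 0.919). Glycam1 is also made by the high endothelial venules of lymph nodes. Of 14 endothelial markers 10 were positive (median difference 0.05), of 11 T cell markers 11 (median 0.21) and of 9 B cell markers 7 (median 0.31), with none passing. The endothelial median was -0.25 in wild-type and 0.45 in heterozygote hosts, the T cell median 0.27 and 0.16, and the B cell median 0.20 and 0.32. Their part in the Glycam1 difference was not tested. The mean of the T cell markers ranged over 5.54 to 7.95 in high and 5.34 to 7.10 in low tumors of wild-type hosts, and over 5.25 to 6.11 and 5.12 to 5.55 in heterozygote hosts.

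Btn1a1 encodes butyrophilin, a protein of the milk fat globule membrane (chromosome 13, 23456984 to 23465914). It ranged from 7.38 to 10.46 (median 8.44) in high and from 4.71 to 7.60 (median 6.24) in low tumors of wild-type hosts. In heterozygote hosts it ranged from 5.68 to 10.26 (median 8.44) and from 4.29 to 6.90 (median 6.08). Of the high tumors, 13 of 14 lay above the median of the low tumors of their genotype. Btn1a1 rose by 2.45 (log2, SE 0.42, limma adjusted p = 0.00756), by 2.47 in wild-type and 2.43 in heterozygote hosts.

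Fabp3 (chromosome 4, 130308738 to 130315463) ranged from 7.12 to 8.85 (median 8.25) in high and from 5.05 to 6.46 (median 5.66) in low tumors of wild-type hosts. Among tumors of heterozygote hosts it ranged from 5.35 to 11.16 (median 7.50) and from 5.32 to 6.04 (median 5.41). The sets did not overlap in wild-type hosts, and 1 high tumor of a heterozygote host lay among the low ones. Fabp3 rose by 2.33 (log2, SE 0.35, limma adjusted p = 0.00201). The epithelial-low tumors of wild-type hosts, whose milk scores had a median of 8.46 against 10.44 in the milk-gene-low tumors, had Fabp3 values of 5.75 to 7.83 (median 7.03), above the median of the milk-gene-low tumors. Of 17 skeletal muscle markers 6 were positive between the sets (median -0.20; 0.43 in wild-type and -0.81 in heterozygote hosts). With a tumor left out the median over both genotypes went from -0.44 (without tumor 42 of an irradiated heterozygote host) to 0.12 (without tumor 56 of an irradiated heterozygote host). The mean of these markers ranged over 4.92 to 8.33 in high and 4.74 to 7.94 in low tumors of wild-type hosts and over 4.60 to 9.93 and 4.61 to 9.32 in heterozygote hosts. Of 9 adipocyte markers 8 were positive (median 0.53; 0.45 in wild-type and 0.59 in heterozygote hosts). The part of muscle or fat tissue in the Fabp3 difference was not tested.

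The tumor of an irradiated heterozygote host with the lowest score of its set (tumor 47, milk score 11.62) was the lowest high tumor of that genotype in Csn1s2a (10.90), Btn1a1 (5.68) and Fabp3 (5.35). It was the highest in Glycam1 (12.56). The 4 genes thus did not move as 1 unit in every tumor. With each of the 28 tumors left out in turn, all 4 genes passed the test in all 28 fits.

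**Figure D2:**
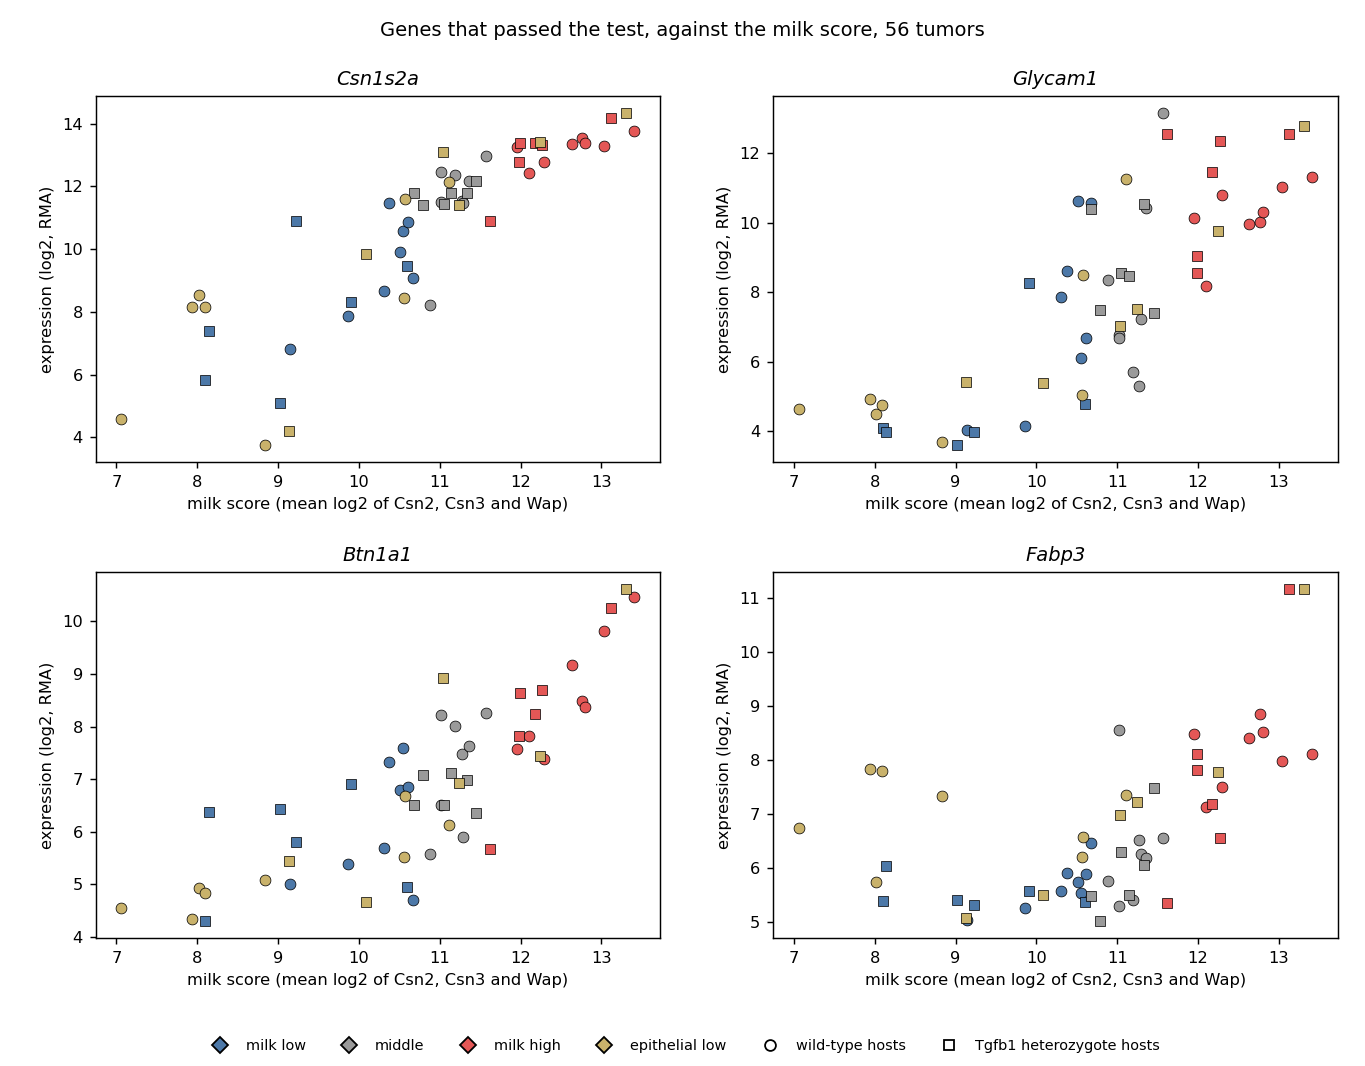
Log2 expression of Csn1s2a, Glycam1, Btn1a1 and Fabp3 (vertical axes) against the milk score (horizontal axes) in all 56 tumors, with colors for the sets, circles for wild-type hosts and squares for Tgfb1 heterozygote hosts. Csn1s2a and Btn1a1 are higher at higher scores inside and outside the chosen tumors, Glycam1 spreads widely at middle scores, and Fabp3 is low in most milk-gene-low and middle tumors, with middle tumors at 8.56 and 7.48.

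Of the 21 measured milk protein genes outside the score, 3 rose, 0 fell and 18 did not pass. Their median difference was 1.15, and 19 of 21 were positive, against a median of -0.002 and 6173 of 12501 positive over all genes tested. Members that did not pass included Lao1, an L-amino acid oxidase of milk (1.87, SE 0.41, adjusted p = 0.158), Csn1s1, the alpha-S1 casein (2.18, SE 0.55, 0.279), Xdh, the xanthine dehydrogenase of the milk fat globule (0.99, SE 0.23, 0.188), Cel, a bile salt-stimulated lipase (1.34, SE 0.35, 0.328), and Muc15, a mucin of the globule membrane (1.79, SE 0.62, 0.710), all by limma. Xdh, Cel and Muc15 were chosen after their values were seen. Csn1s1 ranged from 12.54 to 14.37 (median 13.83) in high and 7.99 to 14.05 (median 12.72) in low tumors of wild-type hosts, so the low tumors spread widely and reached the high ones. The 2 negative members were B2m (-0.09) and Lyz2 (-0.11), which many other cells express. Csn1s2b, Trf, Spp1 and Lpo were not among the genes tested.

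Lalba encodes alpha-lactalbumin, the regulatory subunit of lactose synthase. It ranged from 8.12 to 12.12 (median 10.39) in high and 6.00 to 11.80 (median 6.87) in low tumors of wild-type hosts, and from 8.40 to 12.55 (median 11.77) and 4.75 to 13.68 (median 6.01) in heterozygote hosts. The highest value of all 28 was in a milk-gene-low tumor, tumor 52 of a sham-irradiated heterozygote host, so Lalba did not follow the score everywhere. Its difference was 2.90 (SE 0.81, limma adjusted p = 0.424), with 14 of 14 high tumors above the median of the low ones. Of the 9 measured genes of lactose synthesis and glucose supply 0 passed and 5 were positive (median 0.04).

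Genes of the prolactin and Stat5 pathway showed small differences, and 0 of 19 passed (13 positive, median 0.10). Cish, a feedback inhibitor that Stat5 induces, ranged from 7.27 to 8.58 (median 7.80) against 6.66 to 7.74 (median 7.23) in wild-type hosts and from 7.20 to 8.21 (median 7.47) against 6.93 to 7.58 (median 7.17) in heterozygote hosts (difference 0.52, SE 0.13, limma adjusted p = 0.234). Stat5a ranged from 8.33 to 9.62 (median 8.84) against 7.78 to 8.96 (median 8.28), and from 8.18 to 9.13 (median 8.58) against 6.86 to 8.88 (median 7.83), a difference of 0.68 (SE 0.17, limma adjusted p = 0.279). Both genes had 14 of 14 high tumors above the median of the low tumors of their genotype, with overlapping ranges. Stat5b differed by 0.37 (SE 0.11, limma adjusted p = 0.463) and Elf5 by 0.73 (SE 0.31, 0.807). The Elf5 difference was 1.22 in wild-type and 0.07 in heterozygote hosts, where 3 of 6 high tumors lay above the low median. Prlr, the prolactin receptor, was not among the genes tested.

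Milk fat genes were mostly positive, and most of their differences were small. Of 25 measured genes of milk fat synthesis and lipid uptake Fabp3 alone rose, 21 were positive and the median was 0.18. Thrsp, a regulator of lipid synthesis, ranged from 9.37 to 12.39 (median 10.996) against 6.27 to 12.46 (median 8.45) in wild-type hosts and from 10.36 to 11.85 (median 11.38) against 6.74 to 11.85 (median 8.91) in heterozygote hosts, overlapping in both (2.04, SE 0.56, limma adjusted p = 0.413). Lpl, which releases fatty acids from lipoproteins, differed by 0.91 (SE 0.32, 0.710) and Srebf1, a transcription factor of lipid synthesis, by 0.50 (SE 0.21, 0.807). Of 21 transport genes of lactation 0 passed and 16 were positive (median 0.10), with the nucleoside transporter Slc28a3 at 1.21 and the zinc transporter Slc30a2 at 0.70. Of 27 genes of the secretory pathway and unfolded protein response 0 passed (20 positive, median 0.10), with Xbp1, a transcription factor of secretory cells, at 0.26 and Derl3 at 0.39.

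Involution genes, which mark the regression of the gland after weaning, were positive in 24 of 27 cases (median 0.20), and 0 passed. Saa1 and Saa2, acute phase proteins that the involuting gland also makes, were the members with the lowest p. Saa1 ranged from 7.69 to 12.15 (median 8.53) against 4.04 to 8.01 (median 6.55) in wild-type hosts and from 5.56 to 9.94 (median 8.26) against 4.58 to 7.75 (median 6.65) in heterozygote hosts (2.13, SE 0.48, limma adjusted p = 0.172). Saa2 differed by 1.38 (SE 0.34, 0.234), Orm1 by 1.32 (SE 0.43, 0.658) and Lbp by 0.89 (SE 0.33, 0.744). The highest Saa1, Saa2 and Orm1 values in the wild-type high set came from 1 tumor, tumor 65 of a sham-irradiated host, at 12.15, 10.19 and 8.76, which also had the lowest 18S control value, 9.62.

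**Figure D3:**
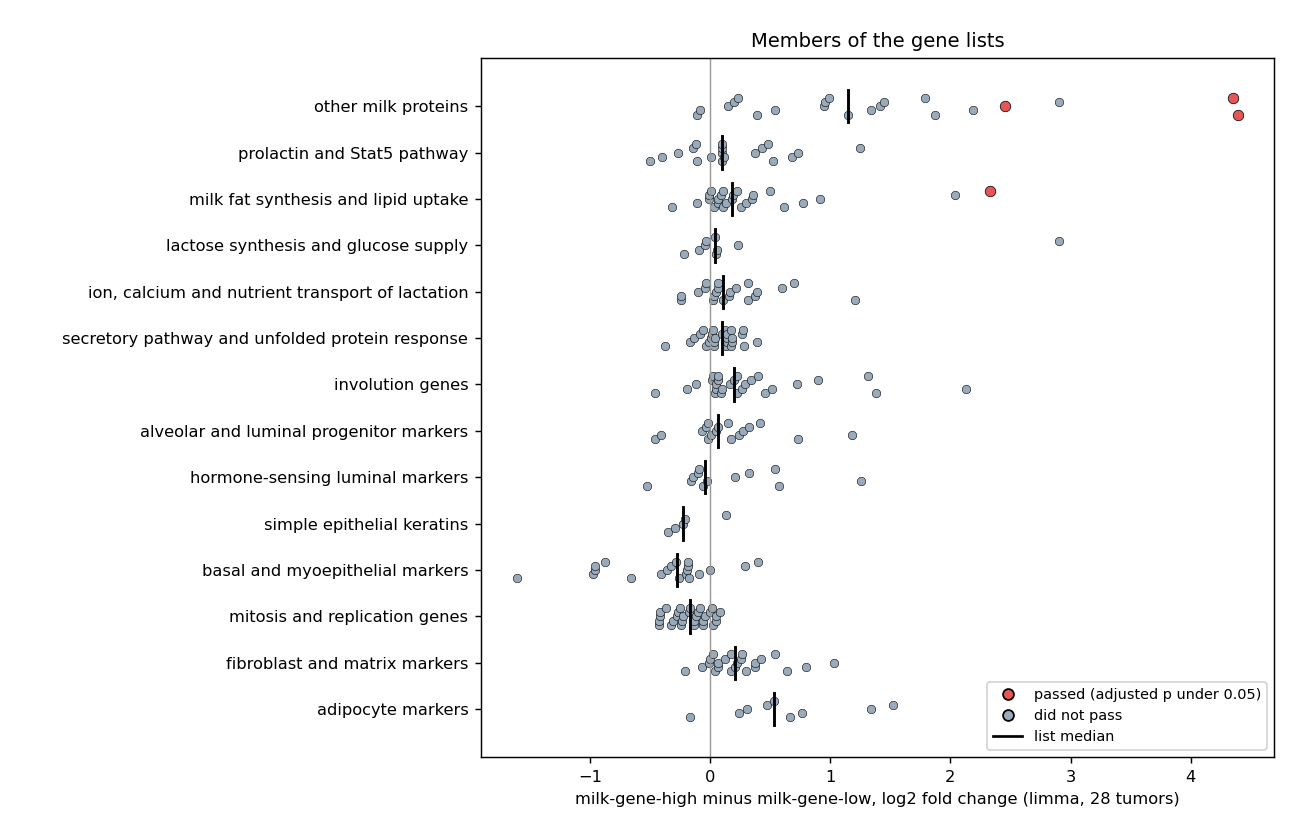
Log2 difference, milk-gene-high minus milk-gene-low (horizontal axis), for every measured member of 14 gene lists (rows), with red points for genes that passed limma's test, grey points for the others and black bars for the list medians. The other milk proteins lie to the right, with a median of 1.15, and most other lists lie around 0.

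The luminal and basal markers gave 0 calls. Of 17 alveolar and luminal progenitor markers 11 were positive (median 0.06). Kit, a receptor of luminal progenitors, differed by 0.24 (0.42 in wild-type and -0.004 in heterozygote hosts). Of 12 hormone-sensing luminal markers 5 were positive (median -0.04, with -0.21 in wild-type and 0.28 in heterozygote hosts). Esr1, the estrogen receptor, ranged from 6.33 to 8.69 (median 7.58) against 5.72 to 6.87 (median 6.20) in wild-type hosts and from 6.11 to 8.24 (median 7.50) against 4.55 to 8.67 (median 5.49) in heterozygote hosts, with 14 of 14 high tumors above the low median (1.25, SE 0.32, limma adjusted p = 0.279). Pgr, the progesterone receptor, differed by -0.09 (-0.46 in wild-type and 0.40 in heterozygote hosts). Its pooled sign turned with array weights (0.013) and with host irradiation as a covariate (0.10). Gata3, a luminal transcription factor, differed by 0.57 (1.12 in wild-type and -0.16 in heterozygote hosts). Of 5 simple keratins 4 were negative, and the list median was -0.39 in wild-type and 0.03 in heterozygote hosts. Krt8 differed by -0.21 (-0.39 in wild-type and 0.03 in heterozygote hosts) and Krt18 by -0.22 (-0.38 and -0.02). Of 20 basal and myoepithelial markers 18 were negative (median -0.27). Lama3, a laminin chain, ranged from 5.97 to 7.86 (median 6.995) against 6.06 to 11.38 (median 8.61) in wild-type hosts and from 5.89 to 8.54 (median 6.83) against 4.48 to 12.09 (median 8.94) in heterozygote hosts, with 14 of 14 high tumors below the low median (-1.61, SE 0.56, limma adjusted p = 0.721). Krt14 differed by -0.66 and Krt15 by -0.98. Krt5 differed by -0.41, and this sign turned when tumors were ranked by Csn2 alone (0.12).

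The other lists also gave 0 calls. Mitosis genes were negative in 24 of 29 cases (median -0.17, with -0.29 in wild-type and 0.05 in heterozygote hosts). The kinesin Kif11 was at -0.37 (-0.51 in wild-type and -0.18 in heterozygote hosts). The ubiquitin-conjugating enzyme Ube2c was at -0.43 (-0.71 and -0.06). Hypoxia and glycolysis genes were negative in 15 of 22 cases (median -0.11, with -0.24 in wild-type and 0.04 in heterozygote hosts). Notch and Wnt genes were negative in 18 of 23 (median -0.17). Interferon-stimulated genes were negative in 16 of 19 cases (median -0.23). Oxidative phosphorylation genes were positive in 17 of 24 cases (median 0.06) and other epithelial junction genes in 20 of 28 (median 0.12). Mesenchymal transition genes were positive in 4 of 15 (median -0.05), ErbB genes in 5 of 9 (median 0.08) and squamous genes in 3 of 6 (median 0.07). The mesenchymal median was -0.25 in wild-type and 0.13 in heterozygote hosts, and the squamous median -0.22 and 0.21. Of markers of other cells, those of fibroblasts were positive in 19 of 23 cases (median 0.21; Dcn at 1.03), of macrophages in 12 of 19 (median 0.04), of neutrophils in 1 of 7 (median -0.22) and of mast cells in 3 of 6 (median 0.01). The macrophage median was -0.19 in wild-type and 0.28 in heterozygote hosts, and the mast cell median 0.29 and -0.37. The erythrocyte marker Alas2 differed by 0.15 (0.32 in wild-type and -0.07 in heterozygote hosts).

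Adipocyte markers had a higher median than every other list except the milk proteins, 0.53, with 8 of 9 positive, and 0 passed. At an unadjusted limma p below 0.05 were 6 of 9, against 756 of 12501 genes tested (6.05%). The same count was 13 of 21 for milk proteins, 6 of 25 for milk fat genes and 6 of 29 for mitosis genes. Adipoq, the adipocyte hormone adiponectin, ranged from 6.15 to 10.22 (median 7.69) against 4.59 to 8.59 (median 7.18) in wild-type hosts and from 4.78 to 9.63 (median 7.50) against 3.54 to 8.19 (median 5.37) in heterozygote hosts (1.33, SE 0.55, limma adjusted p = 0.804). Lipe, hormone-sensitive lipase, differed by 0.31 (SE 0.10, 0.660). The mean of the adipocyte markers ranged over 7.09 to 9.29 in high and 6.51 to 8.44 in low tumors of wild-type hosts, and over 6.76 to 9.01 and 5.89 to 8.08 in heterozygote hosts. RMA values have no true zero, so no marker is listed at 0. The part of fat tissue in the differences of lipid genes was not tested.

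In the lower direction, the 3 genes with the lowest p were Dusp10, a phosphatase of stress-activated kinases, Foxp1, a transcription factor, and Ppfibp1, a liprin. Dusp10 ranged from 5.10 to 6.83 (median 6.24) against 6.22 to 8.98 (median 7.36) in wild-type hosts and from 5.04 to 6.60 (median 5.93) against 5.51 to 7.70 (median 6.93) in heterozygote hosts, with 14 of 14 high tumors below the low median (-1.18, SE 0.29, limma adjusted p = 0.234). Foxp1 differed by -0.84 (SE 0.21, 0.234) and Ppfibp1 by -0.52 (SE 0.13, 0.279). Because Dusp10 was named for its low p in the same tumors, its count of 14 of 14 is a description and no separate test.

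Over the 42 epithelial tumors, with the score as a continuous term, 14 genes rose (0.112%) and 8 fell (0.0640%), but 28 of those tumors are the chosen ones. The 28 tumors outside the comparison, 14 middle and 14 epithelial-low, share no tumor with the 2 sets. There the milk score was fitted as a continuous term with host genotype and the epithelial score as covariates, an analysis added after the data were seen. At an adjusted p below 0.05, 18 genes rose with the score (0.144%) and 3 fell (0.0240%). The lowest p was that of Itgbl1, a gene of none of the lists (0.99 per unit of score, SE 0.12, limma adjusted p = 9.74e-05). The 3 that fell, also outside the lists, were Igsf9 (-0.50, limma adjusted p = 0.00107), Dyrk3 (-0.43, 0.0271) and Slc30a9 (-0.16, 0.0338). Btn1a1 rose by 1.12 per unit of score (SE 0.17, limma adjusted p = 0.00126), Csn1s2a by 1.85 (SE 0.32, 0.00642) and Fabp3 by 0.90 (SE 0.19, 0.0374), while Glycam1 did not pass (1.44, SE 0.37, 0.126). Of the 21 milk protein genes 8 rose and 21 were positive (median slope 0.71, against -0.008 with 5835 of 12501 positive over all genes). These 8 were Csn1s1, Csn1s2a, Wfdc18, Btn1a1, Muc15, Ltf, Cel and Lao1. Other lists also went 1 way there, with 0 calls. Endothelial markers were positive in 14 of 14 cases (median slope 0.36) and adipocyte markers in 8 of 9 (0.63). Mitosis genes were negative in 29 of 29 cases (-0.12), hypoxia and glycolysis genes in 22 of 22 (-0.12) and skeletal muscle markers in 17 of 17 (-0.40). Some lists went the other way than between the sets. Mesenchymal transition genes were positive in 14 of 15 cases, against 4 of 15 between the sets. Oxidative phosphorylation genes were negative in 19 of 24, against 7 of 24. Other lists kept no clear direction. Basal markers were negative in 11 of 20 cases (18 between the sets) and Notch and Wnt genes in 11 of 23 (18). Secretory pathway genes were positive in 10 of 27 (20). Other epithelial junction genes were split, 14 positive and 14 negative. Thrsp (1.16), Saa1 (1.29), Saa2 (0.88) and Elf5 (0.67) also passed there, and Stat5a (-0.06), Esr1 (0.06) and Dusp10 (-0.22) did not.

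None of these calls held without 1 tumor, tumor 7 of an irradiated heterozygote host, an epithelial-low tumor whose milk score of 13.31 was above that of every milk-gene-high tumor of its genotype. It had Csn1s2a at 14.35, Glycam1 at 12.78, Fabp3 at 11.17 and Btn1a1 at 10.62. Without it 0 genes passed limma's test in either direction, with 1480 at an unadjusted p below 0.05 against 1330 with it. The slopes were then 2.26 for Csn1s2a (adjusted p = 0.0693), 0.94 for Btn1a1 (0.126) and 0.51 for Fabp3 (0.399). The slope of Lao1 went from 0.80 to 0.30 (0.126). Slopes of other genes moved less: Csn1s1 from 1.08 to 1.14 and Muc15 from 1.201 to 1.219, Saa1 from 1.29 to 1.42, Saa2 from 0.88 to 0.90 and Elf5 from 0.67 to 0.63, with adjusted p-values of 0.126 to 0.220 by limma. Itgbl1 had a slope of 0.96 without tumor 7 (limma adjusted p = 0.0539). With each other tumor left out, 14 to 37 genes rose. Fabp3 passed in 18 of 28 of these fits, and Csn1s2a and Btn1a1 in 27 of 28.

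Within wild-type hosts alone 0 genes passed in either direction (0%), with 732 at an unadjusted p below 0.05 (5.86%), by limma with a mean for each set and genotype. Csn1s2a differed by 3.82 (SE 0.68, limma adjusted p = 0.0787) and Fabp3 by 2.44 (SE 0.47, 0.111). Within heterozygote hosts 3 genes rose (0.0240%) and 3 fell (0.0240%), with 654 at an unadjusted p below 0.05 (5.23%). Csn1s2a rose by 5.16 (SE 0.79, limma adjusted p = 0.00382), Glycam1 by 6.30 (SE 1.03, 0.00660) and Ugt8a, a galactosyltransferase of galactolipid synthesis, by 3.07 (SE 0.47, 0.00382). Ugt8a ranged from 8.39 to 9.94 (median 9.22) in high and 4.84 to 7.13 (median 5.98) in low tumors of heterozygote hosts, without overlap, and from 6.997 to 9.83 (median 8.38) and 6.67 to 9.57 (median 8.55) in wild-type hosts. The difference between the genotypes passed the test for 0 genes (0%), with 671 at an unadjusted p below 0.05 (5.37%), and was 2.82 for Ugt8a (SE 0.62, limma adjusted p = 0.562), 1.99 for Lef1 (0.562), 1.91 for Plppr4 (0.562) and -1.44 for Btc (0.683). Across the 12501 genes the differences in the 2 genotypes, which share no tumor, had Pearson's r of 0.13 and Spearman's rho of 0.03, with the same sign in 50.4% of genes, as a description over genes that are not independent.

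The 3 genes that fell in heterozygote hosts lie within one stretch of chromosome 8. They were Ing1, a chromatin protein, Tfdp1, a partner of E2F transcription factors, and Tubgcp3, a gamma-tubulin complex subunit. Ing1 ranged from 10.11 to 10.73 (median 10.51) in high and 10.83 to 13.12 (median 12.33) in low tumors (-1.63, SE 0.30, limma adjusted p = 0.0356). Tfdp1 ranged from 9.92 to 10.75 (median 10.24) and 10.31 to 13.31 (median 12.76) (-1.89, SE 0.36, 0.0429), and Tubgcp3 from 8.35 to 9.13 (median 8.64) and 8.81 to 12.31 (median 11.51) (-2.15, SE 0.42, 0.0429). In each of the 3 genes the low tumors spread over more than the high tumors.

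From Irs2 to Tfdp1 (10984681 to 13378448, GRCm38.p6), 22 measured genes lay in a window chosen after the values were seen. All 22 were negative in heterozygote hosts (median -1.71, against 0.009 over all genes tested) and their median was -0.11 in wild-type hosts (-0.006 over all genes). The median deviation of these genes from their genotype median exceeded 1 in 8 of 56 tumors and was at most 0.24 in the others. These 8 were 5 of 14 milk-gene-low, 0 of 14 milk-gene-high, 1 of 14 middle and 2 of 14 epithelial-low tumors. In heterozygote hosts the 4 such milk-gene-low tumors had deviations of 3.14, 2.70, 2.69 and 2.09, and in wild-type hosts the milk-gene-low tumor 12 had 1.19. The middle tumor 61 of a sham-irradiated wild-type host (milk score 11.02) had 2.43. The epithelial-low tumor 11 of an irradiated wild-type host had 1.13. An epithelial-low tumor with a high milk score of 12.24 (tumor 23 of an irradiated heterozygote host) had 1.40. DNA was not measured, and the part of this window in other differences was not tested.

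**Figure D4:**
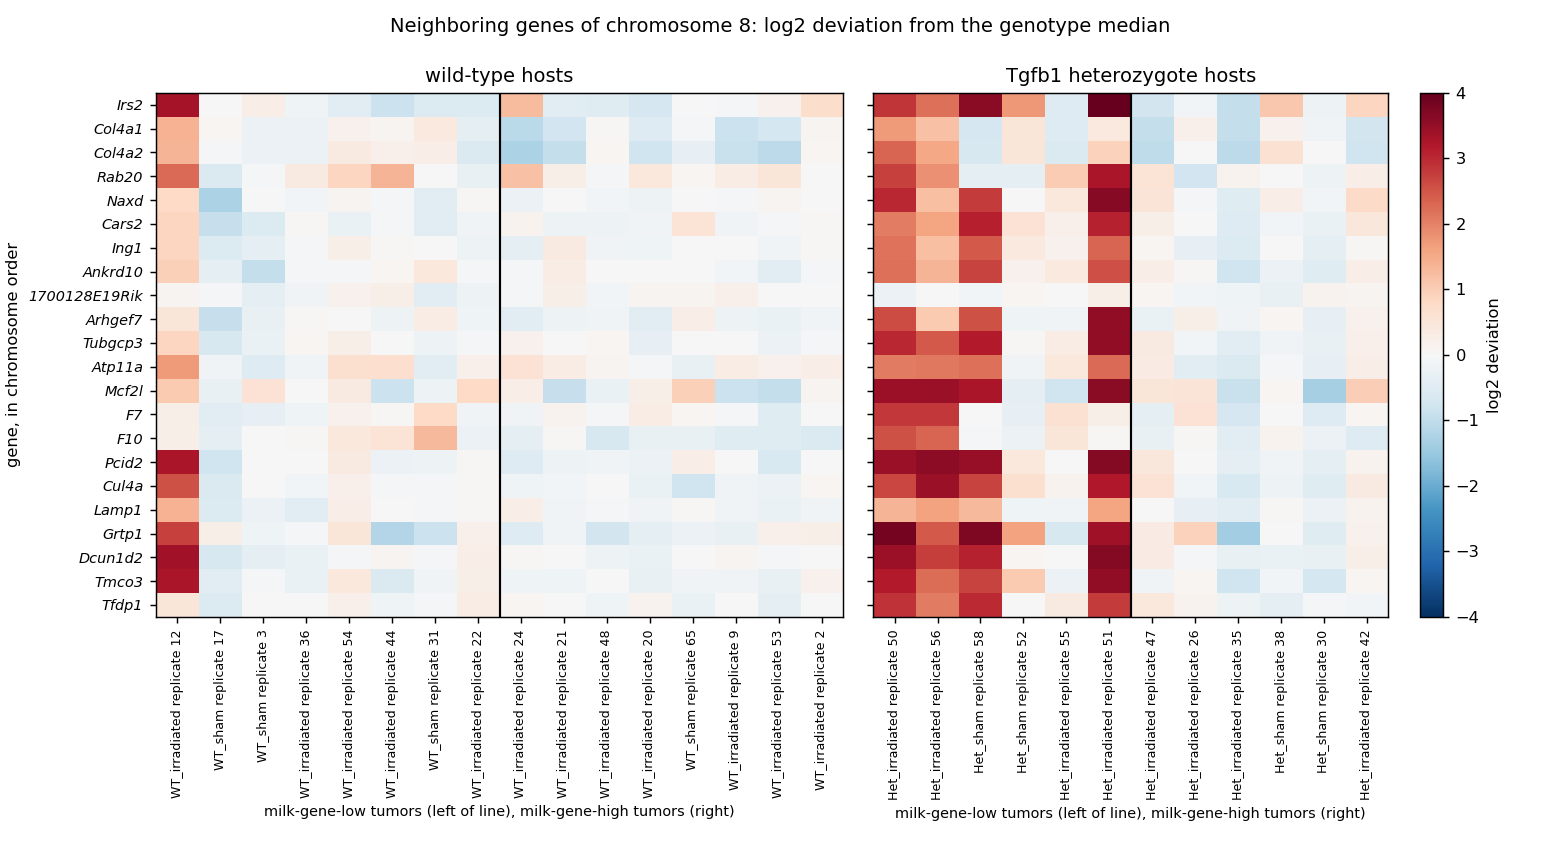
Log2 deviation from the genotype median (color) of 22 genes in chromosome order (rows) in the 28 chosen tumors (columns, by milk score within genotype, with a line between low and high tumors). The high values run down most of the genes in a few columns: 4 milk-gene-low tumors of heterozygote hosts and 1 of a wild-type host.

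Host irradiation was not used in the choice. Among epithelial tumors of wild-type hosts the milk score was 11.50 ± 1.13 (SD, n = 17) with irradiated and 11.01 ± 0.93 (SD, n = 7) with sham-irradiated hosts, a difference of 0.50 (two-sided exact permutation p = 0.312). The scores in heterozygote hosts were 10.85 ± 1.38 (SD, n = 14) with and 10.67 ± 1.79 (SD, n = 4) without irradiation, a difference of 0.18 (two-sided exact permutation p = 0.834). Both differences were smaller than the spread between tumors. Csn2 alone differed by 1.08 in wild-type hosts, 12.33 ± 0.87 (SD, n = 17) against 11.25 ± 1.29 (SD, n = 7), with an exact permutation p = 0.0255. It became 0.255 after adjustment over the 10 comparisons of score and irradiation. Those 10 include repeats on the same tumors, so the adjusted value depends on how many were made. In heterozygote hosts Csn2 differed by 1.25 (two-sided exact permutation p = 0.296). The shares of irradiated hosts in the high and low sets gave p = 0.569 in wild-type and 1.0 in heterozygote hosts (Fisher's exact test, two-sided).

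The 18S ribosomal control probe sets gave 12.47 ± 1.19 (SD, n = 8) in high and 12.91 ± 0.39 (SD, n = 8) in low tumors of wild-type hosts (exact permutation test, p = 0.430, adjusted over 4 tests 0.595). In heterozygote hosts they gave 11.92 ± 0.46 (SD, n = 6) and 12.54 ± 0.45 (SD, n = 6) (exact permutation test, p = 0.0368, adjusted 0.147). The difference between 3' and 5' control probe sets was 0.19 and 0.19 in wild-type and 0.30 and 0.25 in heterozygote hosts (exact permutation test, p = 0.985 and 0.446). With the 18S value as a covariate the 4 genes still passed. With the epithelial score as a covariate Csn1s2a and Fabp3 passed, and Glycam1 and Btn1a1 had limma adjusted p-values of 0.0595 each.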

How the data were processed

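Total RNA of 56 tumors, 1 array each, was labelled (100 ng) for Affymetrix 3' arrays, per the labels' protocols. The authors deposited RMA values on a log2 scale, 1 for each probe set, per the submitters' processing notes (RMA version: not given in the sources used here). Array medians were 5.92 to 6.00 for wild-type and 5.57 to 5.71 for heterozygote hosts, so the genotypes may have been normalized separately, and tumors were ranked within genotype. The number of arrays limits the precision.

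Of 45101 probe sets, 34958 had 1 gene symbol, 932 had several and 9211 were unnamed here. Symbols were updated through GRCm38.p6 gene identifiers (12467 of 12508 genes matched). Probe sets above the overall median of 5.83 on at least 6 arrays were kept, and each gene was read from its brightest probe set on average. limma 3.58.1 in R 4.3.3 (lmFit, eBayes) was fitted without the 7 score genes. Exact permutation tests compared single values. Lists were also averaged over their measured members in each tumor.

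The tumors, rules and 30 gene lists (569 genes, 479 measured) were chosen with earlier results of these data known. Named genes were up to 15 called genes per direction with the lowest p (3 where none passed), 2 to 4 per list, a fixed set of pathway genes, and 3 per direction for the genotype difference. For genes named by lowest p, counts of high tumors above or below a low median come from the same tumors and are descriptions. Other named genes are marked where they appear, apart from the calls within heterozygote hosts and outside the sets, which were named from their results. Alternatives covered filters, probe sets, scaling, variance model, array weights, covariates, other rankings and single tumors. Figures used matplotlib 3.10.9 (Python 3.11.15).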

Additional observations from a re-analysis of the deposited data

Results flagged for a closer look

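Of 220 groups of values examined with Dixon's criterion, 27 had a tumor that stood apart from the rest of its set. The criterion is set to flag about 5% of groups by chance. The groups reused the same tumors across related genes, such as Saa1 and Saa2, and are not independent. The count of 27 therefore cannot be read as an excess over chance, and the flags are a description. Each value below stood apart within its own set and is given in log2 with the nearest value of that set. The score genes were not examined, since they chose the sets.

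Milk genes were among them. Tumor 3 of a sham-irradiated wild-type host (milk-gene-low) had Lao1 at 6.81 (nearest 5.83). Glycam1 was at 8.19 in the milk-gene-high tumor 21 of an irradiated wild-type host (nearest 9.96) and at 8.26 in the milk-gene-low tumor 55 of an irradiated heterozygote host (nearest 4.78). Tumor 55 also had Slc28a3 at 7.66 (nearest 5.92). Fabp3 was at 6.04 in the milk-gene-low tumor 56 of an irradiated heterozygote host (nearest 5.58), which also had Orm1 at 8.46 (nearest 5.30).

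Tumor 12 of an irradiated wild-type host (milk-gene-low) stood apart in the basal keratins Krt5 at 12.07 (nearest 7.24) and Krt15 at 11.22 (nearest 7.31), and in Lbp at 8.90 (nearest 11.32). Tumor 24 of an irradiated wild-type host (milk-gene-high) had Elf5 at 10.57 (nearest 11.72), Lbp at 10.41 (nearest 11.76) and the plasma cell gene Mzb1 at 7.86 (nearest 6.74). Tumor 65 of a sham-irradiated wild-type host (milk-gene-high) had Saa1 at 12.15 (nearest 9.17), Saa2 at 10.19 (nearest 7.88), Orm1 at 8.76 (nearest 6.53), Cars2 at 8.56 (nearest 8.14) and the 18S control at 9.62 (nearest 12.36).

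Tumor 17 of a sham-irradiated wild-type host (milk-gene-low) had Gata3 at 6.96 (nearest 8.56) and Tspan8 at 7.46 (nearest 4.95). Tumor 53 of an irradiated wild-type host (milk-gene-high) had Tspan8 at 10.05 (nearest 7.01) and Foxp1 at 8.77 (nearest 9.39). Tumor 22 of an irradiated wild-type host (milk-gene-low) had Ube2c at 11.27 (nearest 11.84). In heterozygote hosts the milk-gene-high tumor 38 had Lipe at 6.65 (nearest 7.02) and a 3' minus 5' difference of 0.54 (nearest 0.30). The milk-gene-low tumor 52 had Krt14 at 4.46 (nearest 9.29), the milk-gene-low tumor 58 had Derl3 at 8.08 (nearest 7.29) and the milk-gene-low tumor 50 had Btc at 6.31 (nearest 5.60).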

How the results depend on the processing

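Apart from the fit over the tumors outside, the other settings that leave out no single tumor did not all compare these 2 sets. Some ranked the tumors otherwise, and 1 used the score as a continuous term over the 42 epithelial tumors. Csn1s2a and Fabp3 passed the test in 15 of 15 such settings, Glycam1 in 12 (highest adjusted p 0.0941) and Btn1a1 in 13 (0.130). Glycam1 did not pass with array weights (0.0672), and neither of them passed with the epithelial score as a covariate or when tumors were ranked by Csn3 and Wap. The count of genes that rose was 4. It was 7 with every probe set tested, 2 with the epithelial score as a covariate, 7 with the middle tumors in the fit, 14 with the score as a continuous term over 42 epithelial tumors, 43 with all 56 tumors ranked without the epithelial choice and 18 over the tumors outside (0 without tumor 7). The count that fell was 8, 10 and 3 in the last 3 of these, against 0; 5 of the 8 (F10, Cul4a, Tmco3, Pcid2 and Grtp1) lie in the chromosome 8 window. With each tumor left out, 4 to 7 rose (7 without tumor 56 of an irradiated heterozygote host) and 0 fell.

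In wild-type hosts the count was 4 with every probe set, 1 with array weights and 0 to 2 with a tumor left out, against 0. In heterozygote hosts it was 16 with array weights, 3 with no filter, with the epithelial score, with the 3' minus 5' difference and with the 18S control, and 3 to 17 with a tumor left out (17 without tumor 55 of an irradiated host), against 6. The difference between genotypes gave 0 to 1 genes with a tumor left out. The cause of these shifts was not tested.

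Signs turned for genes that had not passed over both genotypes. Over the tumors outside the sets this was so for 20 of 80 named genes, Ugt8a (-0.55) and Tubgcp3 (0.01) among them. Of the 43 genes recomputed under every setting these were Stat5a (-0.065), Krt5 (0.27), Slc30a2 (-0.10), Dcn (-0.10), Foxp1 (0.0090) and Ppfibp1 (0.11). Krt8 (0.61) and Krt18 (0.51) turned with all 56 tumors ranked, Krt5 (0.12) with ranking by Csn2, and Pgr with array weights (0.013), the epithelial score (0.016), host irradiation (0.10) and single tumors left out (-0.49 to 0.16). Some list medians also turned with a tumor left out. They were hormone-sensing (-0.13 to 0.15), mesenchymal (-0.12 to 0.06), endothelial (-0.04 to 0.10), macrophage (-0.04 to 0.10) and mast cell lists (-0.07 to 0.19). The others were lactose (-0.03 to 0.07), squamous (-0.05 to 0.16), ErbB (-0.01 to 0.16) and skeletal muscle lists (-0.44 to 0.12), and Alas2 as the 1 erythrocyte marker (-0.04 to 0.25). The irradiation difference in wild-type hosts was 1.08 for Csn2 alone, and 0.31 (without tumor 17) to 0.79 (without tumor 65, both of sham-irradiated hosts) with a tumor left out, against 0.50. In heterozygote hosts it was 1.25 for Csn2 alone, -0.36 for Csn3 and Wap, and -0.37 to 0.71 with a tumor left out (-0.37 without tumor 58 and -0.30 without tumor 52, both of sham-irradiated hosts).

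No paired analysis was possible because replicate numbers do not recur across groups. Signal above background per probe was not used here. With all arrays quantile normalized together the 4 genes passed.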
